A study of Mus musculus with 4 samples.

Results

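Molecular chaperones bind proteins that are being made, moved or damaged and help them to fold. The genes described here are all symbols of the count matrix that start with Hspa, Hspb, Hspd, Hspe, Hsph or Hsp90, with Dnaj, or with Cct and a digit. They number 74 of 13978 genes and were grouped by family: 3 Hsp90 genes, 13 of the Hsp70 and Hsp110 families, 6 Hspb symbols, 3 of the mitochondrial chaperonin, 4 Dnaja, 12 Dnajb, 25 Dnajc and 8 Cct genes. Of these, 58 had a mean of at least 10 counts-per-million (CPM) over both groups and 16 did not. The rule reads symbols only, so it also takes in Hspbp1, a nucleotide exchange factor of Hsp70.

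The study asked what happens to normal blood stem cells in a marrow that carries B-cell acute lymphoblastic leukemia (B-ALL). Wild-type CD45.1 mice received by tail vein either PBS (the PBS control) or 150000 tumor cells (the B-ALL environment, here called B-ALL marrow). The tumor cells were taken from a lymph node of 1 leukemic Cd45.2+/+ Ebf1+/- Pax5+/- mouse, LN768. After 3 weeks, host marrow cells were sorted as KIT+, Lin-, CD45.2- and CD45.1+, a gate that leaves out the leukemic cells, and their RNA was read by 10x Chromium 3' sequencing. The labels name 4 samples, 2 in each group. Both groups share the host strain, the gate and the time.

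Each transcript was counted through a unique molecular identifier (UMI) at its 3' end, so levels of different genes need no scaling by length. Both groups hold 5882 cells, with 68391214 UMIs in the PBS control and 76059014 in B-ALL marrow. Cells carry a group name and no replicate number, so each group was 1 sample. There is no replicate check and no test between groups, and every interval is a 95% interval of counting error only, which does not include the spread between mice. The B-ALL marrow had 190 cells shallower than the shallowest control cell, and mitochondrially encoded genes took 5.14% of its UMIs against 3.56% in the control. Barcodes found in both groups numbered 18. Clusters were placed in 8 progenitor classes by marker genes, with 1415 control cells and 1240 cells of B-ALL marrow left unnamed. HSC-like cells, those with hematopoietic stem cell markers, were 330 of the control and 1125 of B-ALL marrow, and erythroid-like cells were 848 and 203. Over all cells, fewer cells of a class and less RNA per cell cannot be told apart. Of the markers of mature cells that the gate should leave out, 6 of 7 for macrophages were in the matrix and summed to 4.94 CPM in the control and 8.11 in B-ALL marrow. For B cells 4 of 10 summed to 132 and 149, and for T and NK cells 3 of 9 summed to 325 and 256.

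In the cytosol, Hsp70 proteins bind short exposed stretches of a chain, J proteins (Dnaja, Dnajb and Dnajc) bring them clients and switch on their ATPase, and Hsp90 acts later on kinases and receptors. The CCT ring folds actin and tubulin in a closed chamber, and Hspd1 with its lid Hspe1 folds proteins of the mitochondrial matrix. The endoplasmic reticulum (ER) has its own Hsp70, Hspa5 (BiP), and its own Hsp90, Hsp90b1 (GRP94). Heat shock factors are known to raise cytosolic chaperones through repeats of nGAAn, and the unfolded protein response raises ER chaperones through the ER stress element, a CCAAT box followed at a fixed distance by CCACG.

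The 250 bases before a start site are shown for 5 genes of the inducible and ER groups that carry results given further on, from RefSeq in the build GRCm38.p6. A window was found for 61 of the 74 members. The windows of Dnaja4 and Hspd1 lie inside the span of the gene, which begins at 54698848 and at 55088243. They thus stand before a start site further in, and which start these cells use was not tested. Capitals mark GAANNTTC and TTCNNGAA, each its own reverse complement and a pair of heat shock units, or the ER stress element (CCAAT, any 9 bases, then CCACG), all searched on both strands.
Hspd1, chr1:55087933-55088182, minus strand: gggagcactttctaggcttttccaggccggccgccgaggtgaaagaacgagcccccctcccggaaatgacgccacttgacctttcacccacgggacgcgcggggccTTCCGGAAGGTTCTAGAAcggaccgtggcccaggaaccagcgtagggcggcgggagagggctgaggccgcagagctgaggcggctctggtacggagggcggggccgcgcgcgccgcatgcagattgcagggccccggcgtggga
Hspa1b, chr17:34959239-34959488, minus strand: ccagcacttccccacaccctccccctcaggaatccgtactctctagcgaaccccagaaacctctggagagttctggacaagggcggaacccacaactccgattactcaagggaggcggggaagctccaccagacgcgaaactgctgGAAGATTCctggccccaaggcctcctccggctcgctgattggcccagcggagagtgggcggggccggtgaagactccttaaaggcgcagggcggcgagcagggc
Dnaja4, chr9:54699309-54699558, plus strand: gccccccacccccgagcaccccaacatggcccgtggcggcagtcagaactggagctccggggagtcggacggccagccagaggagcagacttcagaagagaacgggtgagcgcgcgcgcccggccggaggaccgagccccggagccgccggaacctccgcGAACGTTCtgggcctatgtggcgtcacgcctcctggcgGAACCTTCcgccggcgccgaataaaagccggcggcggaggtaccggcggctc
Hspa5, chr2:34771840-34772089, plus strand: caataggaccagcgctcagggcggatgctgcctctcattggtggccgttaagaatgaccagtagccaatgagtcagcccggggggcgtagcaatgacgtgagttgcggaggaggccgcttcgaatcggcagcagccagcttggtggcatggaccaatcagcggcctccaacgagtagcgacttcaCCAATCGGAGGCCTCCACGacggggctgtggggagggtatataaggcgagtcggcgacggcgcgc
Hsp90b1, chr10:86705445-86705694, minus strand: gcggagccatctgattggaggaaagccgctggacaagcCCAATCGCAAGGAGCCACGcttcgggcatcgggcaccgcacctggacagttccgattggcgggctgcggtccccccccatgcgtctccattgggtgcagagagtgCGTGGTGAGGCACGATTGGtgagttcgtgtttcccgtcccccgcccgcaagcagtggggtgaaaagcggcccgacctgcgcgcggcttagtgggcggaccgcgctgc
The window of Hspd1 shares 215 bases with that of Hspe1, which is read in the opposite direction, and its matches to GAANNTTC and TTCNNGAA overlap each other. GAANNTTC or TTCNNGAA was found in 14 of the 61 members (23.0%) and in 14.5% of all 27025 genes with a window. The ER stress element was found in 3 members (4.92%), Hspa5, Hsp90b1 and Dnajc3, which all act in the ER, and in 35 of all genes (0.130%). A match describes the letters of the window and not a bound site.

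Chaperone transcripts made up 2.28% of control UMIs and 2.25% of those of B-ALL marrow. Hsp90ab1, the constitutive cytosolic Hsp90, stood at 6073 CPM in the control and 5823 in B-ALL marrow, and Hspa8, the constitutive cytosolic Hsp70, at 2718 and 2523. Hsp90aa1, the inducible cytosolic Hsp90, was at 1641 and 1785 CPM. Hspd1 was at 1228 and 1136 CPM, Hspe1 at 956 and 829, Hsp90b1 at 949 and 928, and Hspa5 at 929 and 996. The first 4 of these genes had the same order in both groups, and after them Hspe1 led in the control and Hspa5 in B-ALL marrow.

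Over all cells, none of the 58 members differed by 1.5-fold in either direction, where 3.94% of all 8781 genes tested were higher and 2.79% lower by that fold. Their log2 folds, B-ALL marrow over PBS control, were highest in Hspbp1, at 0.39, and had a median of -0.07 beside -0.02 for all genes. Past a log2 fold of 0.32, 1 member was higher, Hspbp1, and 2 were lower, Cct5 among them, where the share of all genes was 9.87% and 9.71%. Counting intervals lay above 0 for 17 members and below 0 for 31, as they did for 34.8% and 40.3% of all genes. With the same number of cells of each cluster, unnamed ones included, drawn from both groups, the members' median was 0.00, with 29 above 0 and 29 below. This draw is called equal class numbers here, and it did not make UMIs per cell equal.

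**Figure D1:**
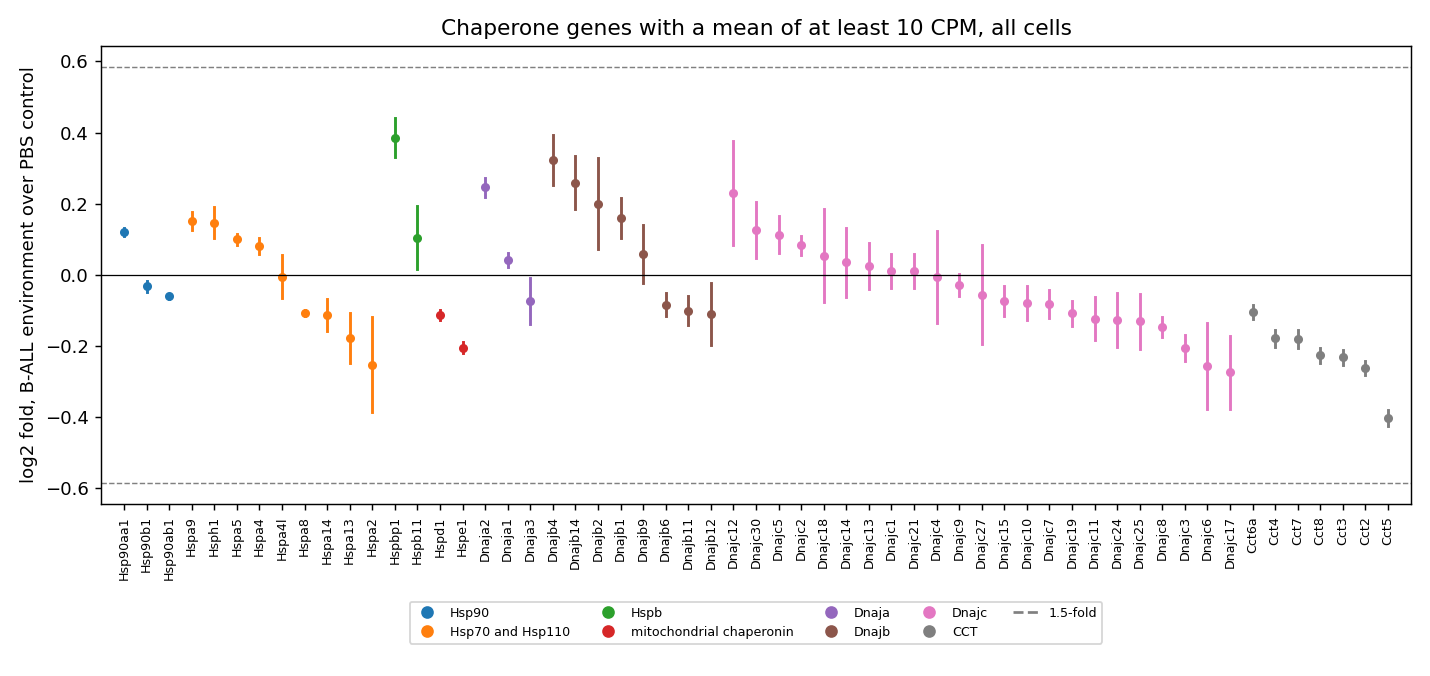
Log2 fold (B-ALL marrow over PBS control) over all cells of the chaperone genes reported here at 10 CPM or more on average, grouped by family. Points are folds, bars are 95% counting intervals and dashed lines are 1.5-fold: no point passes a dashed line, and all 7 Cct genes lie below 0.

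Over all cells the Hsp90 and Hsp70 genes lay on both sides of 0. Hsp90aa1 had a log2 fold of 0.12 (0.11 to 0.13), Hsp90ab1 one of -0.06 and Hsp90b1 one of -0.03. Hspa9, the Hsp70 of mitochondria, was higher (331 to 368 CPM, 0.15), as was Hsph1, an Hsp110 that recharges Hsp70 (108 to 119.8 CPM, 0.15). Hspa5 was at 0.10 and Hspa4, another Hsp110, at 0.08, while Hspa8 was at -0.11, Hspa13 of the ER at -0.18 and Hspa2 at -0.25. The summed Hsp90 fold was -0.02 and the summed Hsp70 and Hsp110 fold -0.02. Scaled by total UMIs in place of TMM (a trimmed mean of gene ratios) they were 0.01 and 0.02, so no direction is given for either family over all cells. With equal class numbers all 3 Hsp90 genes were above 0, Hsp90aa1 at 0.31, Hsp90ab1 at 0.03 and Hsp90b1 at 0.07. Hsph1 was then at 0.36, Hspa9 at 0.31, Hspa5 at 0.20 and Hspa4 at 0.19, each further from 0, and Hspa8 was at 0.01.

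J proteins and Hsp70 cofactors held the highest folds. Hspbp1 went from 63.3 to 82.8 CPM (0.39, 0.33 to 0.44), Dnajb4, a cytosolic J protein, from 41.2 to 51.5 (0.32) and Dnaja2, a general partner of Hspa8, from 309 to 366 CPM (0.25). Dnajb14 was at 0.26, Dnajb2 at 0.20 and Dnajb1, a heat-inducible partner of Hsp70, at 0.16. Dnaja1 was at 0.04, Dnaja3 of mitochondria at -0.07, Dnajb6 at -0.08 and Dnajb11 of the ER at -0.10. Of 23 Dnajc genes tested, 4 had intervals above 0 and 11 below. They ran from -0.27 in Dnajc17 and -0.26 in Dnajc6, a J protein of clathrin uncoating, to 0.23 in Dnajc12. Dnajc3 of the ER was at -0.21, Dnajc8 at -0.15, Dnajc19 of the mitochondrial import motor at -0.11, Dnajc9, which also binds histones, at -0.03, and Dnajc2, which sits on ribosomes, at 0.08. Hspb11, an intraflagellar transport gene, was at 0.10. Of the genes of this paragraph, 4 lay on the other side of 0 with equal class numbers: Hspb11 was at -0.14, Dnajb2 at -0.04, Dnaja3 at 0.05 and Dnajc19 at 0.03, the last 3 with intervals across 0.

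The subunits of the CCT chaperonin were lower together. All 7 above 10 CPM had intervals below 0, from -0.10 in Cct6a to -0.40 in Cct5, and their direction was the same under TMM, total UMIs and DESeq2 size factors. Summed, the family took 0.359% of control UMIs and 0.314% in B-ALL marrow, a log2 fold of -0.23 (-0.24 to -0.22). Cct5 went from 557 to 421 CPM, Cct2 from 674 to 562 (-0.26), Cct3 from 507 to 432 (-0.23) and Cct8 from 516 to 441 (-0.23). Tcp1, which encodes the remaining subunit and is outside the symbol rule, went from 487 to 438 CPM (-0.15). With equal class numbers, 6 of the 7 were below 0, Cct6a was at 0.02 and the median was -0.09 in place of -0.23. Erythroid-like cells, the class with the largest CCT share in both groups, were 14.4% of control cells and 3.45% of B-ALL marrow.

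Both genes of the mitochondrial chaperonin were lower over all cells, Hspd1 at -0.11 (-0.13 to -0.10) and its lid Hspe1 at -0.21 (-0.22 to -0.19). With equal class numbers Hspd1 was at 0.13, on the other side of 0, and Hspe1 at -0.01. Of a separate list of mitochondrial protein quality genes, 14 of 15 tested were below 0 and none passed 1.5-fold, with a median of -0.14, where 4677 of all 8781 genes were below 0. In the draw of equal class numbers 10 of 15 were below 0 and the median was -0.05. Its 4 largest folds were those of Htra2, a protease of the intermembrane space (-0.48), Phb (-0.37), Grpel1, the exchange factor of Hspa9 (-0.26), and Spg7 (-0.24).

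In the cytosolic partner list 10 of 31 tested were above 0 and none passed 1.5-fold (14 of 31 above 0 with equal class numbers). The heat shock factor Hsf2 was highest (0.53, 0.43 to 0.62), and Pfdn5, Bag1 and Bag6 followed by size at -0.30, -0.29 and -0.29. In the ER list 10 of 24 were above 0. The ER stress sensor Ern1 was past 1.5-fold lower (48.7 to 29.3 CPM, -0.73), its target Xbp1 was at 0.53, Hyou1, a large Hsp70 of the ER, at -0.38, and the disulfide isomerase Pdia6 at -0.32.

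**Figure D2:**
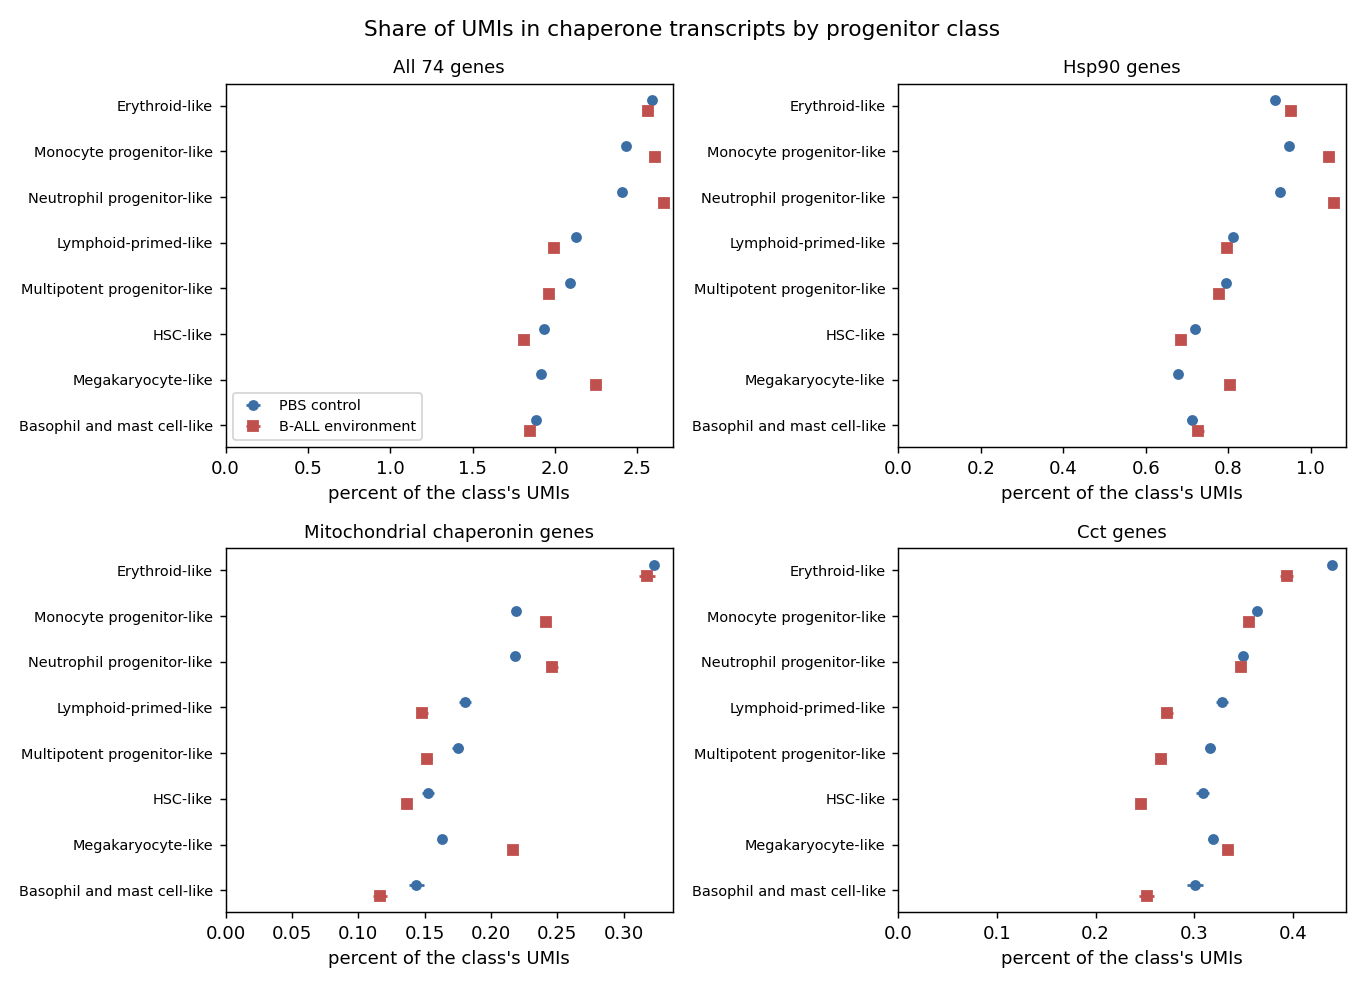
Percent of a class's UMIs in all 74 chaperone genes and in the Hsp90, mitochondrial chaperonin and Cct families for 8 progenitor classes, with both groups as separate points and bars for 95% counting intervals. Erythroid-like cells have the largest chaperonin and Cct shares in both groups, and the Cct share of HSC-like cells is 0.309% in the control and 0.246% in B-ALL marrow.

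Chaperone levels differed among progenitor classes, and because the classes come from clusters of all genes these levels are a description. In the control the chaperone share was lowest in basophil and mast cell-like cells (1.88%) and highest in erythroid-like cells (2.59%). In B-ALL marrow it was lowest in HSC-like cells (1.81%) and highest in neutrophil progenitor-like cells (2.66%). Of the 58 members, 29 had their highest level in erythroid-like cells in the control and 20 in B-ALL marrow. The highest class was the same in both groups for 39 members and the lowest for 29.

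Levels by class are CPM of the class total, without TMM. Hspd1 stood at 1814 in erythroid-like cells of the control and 1725 in those of B-ALL marrow, against 728 and 592 in basophil and mast cell-like cells, its lowest class in both. The ER chaperones had another order. Hspa5 was highest in neutrophil progenitor-like cells, at 1625 and 2023, and in the control lowest in erythroid-like cells, at 501. Hsp90b1 was also highest there, at 1555 and 1855, and at 509 in erythroid-like cells of the control. Neutrophil progenitors make secretory granules, whose proteins pass through the ER. Hsp90ab1 and Hspa8 were flatter, with the highest class 1.41 and 1.48 times the lowest in the control, where Dnajc6 had the widest ratio of the tested members, 6.28. In B-ALL marrow the widest was that of Dnajb2, 8.45, then Hspa2 at 6.89 and Dnajc6 at 4.90.

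**Figure D3:**
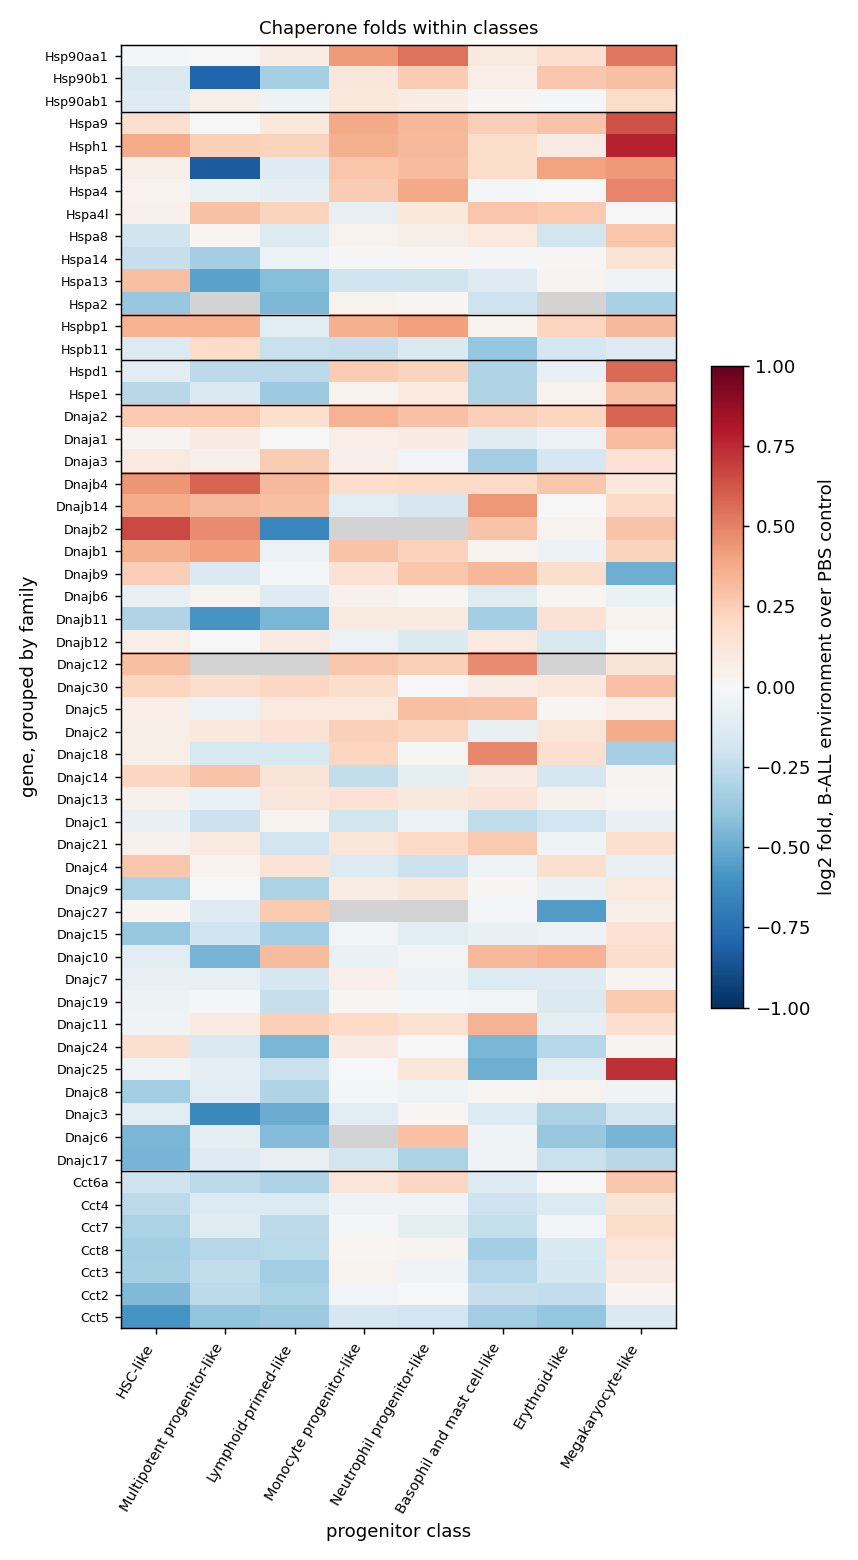
Log2 fold (B-ALL marrow over PBS control) of the chaperone genes, in rows by family, within each of 8 progenitor classes, in columns, with red for higher and blue for lower in B-ALL marrow. The color scale ends at 1 on either side. The Cct rows are blue in HSC-like cells, and Hspa5 and Hsp90b1 are lowest in multipotent progenitor-like cells.

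HSC-like cells are the class nearest to the study's question. Of 59 members tested there, 28 were above 0 and 31 below, with a median of -0.02. Past 1.5-fold, Dnajb2, a J protein that binds ubiquitin, was higher (56 and 323 UMIs, 21.4 to 33.8 CPM, log2 fold 0.66, 0.25 to 1.10) and Cct5 was lower (497 to 331 CPM, -0.59, -0.68 to -0.49). Among all genes of the class 6.8% were higher and 4.71% lower by that fold, so the count of members is below the background. Intervals lay above 0 for 8 members and below 0 for 17, beside 15.5% and 20.4% of all genes. Cct5 lies close to the threshold: scaled by total UMIs its fold was -0.56 and no longer past it. Dnajb2 depended on how the class was drawn: its fold was 0.45 at clustering resolution 0.6 and 0.28 with classes by marker UMIs per cell, no longer past 1.5-fold in either. It was 1.03, 0.40 and 0.43 in clusters 2, 3 and 4 of the class taken alone.

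The 7 Cct genes tested in HSC-like cells all had intervals below 0. Cct2 went from 569 to 419 CPM (-0.44), Cct8 from 418 to 331 (-0.34), Cct3 from 440.4 to 349.8 (-0.33) and Cct6a from 467 to 404 (-0.21). Their median was -0.33 and their summed fold -0.36 (-0.40 to -0.32). The class holds 3 clusters, and the median of the 7 was -0.30 in cluster 2, -0.06 in cluster 3, which has 37 control cells, and -0.35 in cluster 4. In cells of 6000 to 12000 UMIs it was -0.36, with clusters of centred values -0.48, and with classes by marker UMIs per cell -0.15. The class from centred values sets unlike cells side by side. Of its 182 control cells, 128 were in a cluster with the mitotic genes Ccnb2 and Cdc20 among its leading genes. Of its 1056 cells of B-ALL marrow, 862 were in another cluster, led by Socs2 and Ltb. Cell cycle genes were lower in the HSC-like cells of the main classes, 20 of 20 below 0 with a median of -0.36. Their summed fold was -0.77 in cells of 6000 to 12000 UMIs, and -0.29, 0.10 and -0.23 in clusters 2, 3 and 4. The part of the cell cycle in the CCT result was not tested.

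Dnajb genes were mostly above 0 in HSC-like cells, 6 of 8 with a median of 0.30. Dnajb4 went from 60.8 to 82.6 CPM (0.44), Dnajb14 from 52.0 to 67.4 (0.37) and Dnajb1 from 65.8 to 84.3 (0.36), each with an interval above 0. Dnajb11 was lower (-0.30, -0.50 to -0.10). Hsph1, which recharges Hsp70, was at 0.37 and Hspa12b, a distant Hsp70 known from endothelium, at 0.58 with an interval across 0 (-0.09 to 1.31). After Cct5, the lowest folds were those of Dnajc17 (-0.46, -0.91 to 0.00), Dnajc6 (-0.45, -0.90 to 0.01), Cct2, Hspa2 (-0.38, -0.91 to 0.17) and Dnajc15 (-0.38, -0.56 to -0.19). The abundant Hspa8 was at -0.20, Hsp90ab1 at -0.13 and Hspa5 at 0.06 (-0.03 to 0.14).

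**Figure D4:**
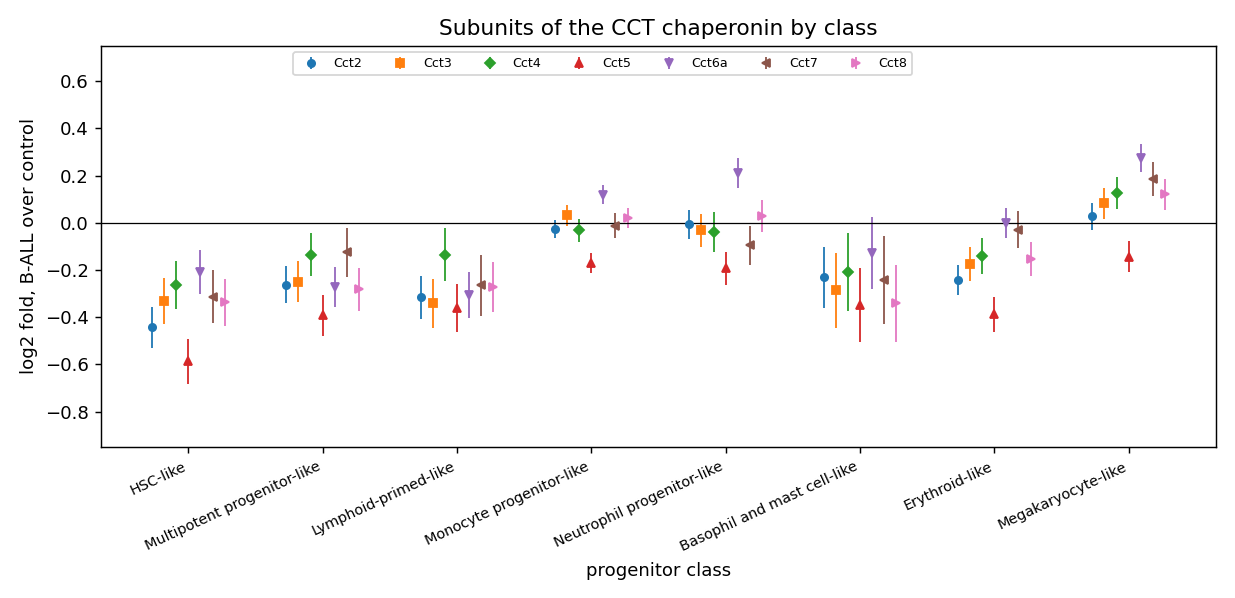
Log2 fold (B-ALL marrow over PBS control) of the 7 tested Cct genes in 8 progenitor classes, with bars for 95% counting intervals. All 7 lie below 0 in HSC-like, multipotent progenitor-like, lymphoid-primed-like, basophil and mast cell-like and erythroid-like cells under TMM scaling (6 of 7 in erythroid-like cells by total UMIs or DESeq2 size factors), 6 of 7 lie above 0 in megakaryocyte-like cells (5 of 7 by total UMIs), and Cct5 is below 0 in all 8 classes.

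Across the 8 classes Cct5 ran from -0.59 in HSC-like to -0.14 in megakaryocyte-like cells. The summed CCT fold was -0.29 in lymphoid-primed-like, -0.25 in basophil and mast cell-like, -0.25 in multipotent progenitor-like, -0.16 in erythroid-like, -0.01 in monocyte progenitor-like, -0.01 in neutrophil progenitor-like and 0.10 in megakaryocyte-like cells. The summed fold of the cell cycle list in the same 7 classes was -0.08, 0.43, 0.13, 0.32, 0.17, 0.19 and 0.22, beside -0.36 in HSC-like cells. In megakaryocyte-like cells of 6000 to 12000 UMIs, 2 of the 7 Cct genes were above 0 and the summed CCT fold was -0.06.

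Megakaryocyte-like cells had more chaperone transcripts in B-ALL marrow. The share was 1.92% in the control and 2.25% in B-ALL marrow, and 44 of 58 members were above 0 (39 by total UMIs), with a median of 0.13 beside 0.01 for all genes. Hsph1 (87.0 to 148 CPM, 0.77, 0.63 to 0.91), Dnajc25 (19.3 to 32.0, 0.73) and Hspa9 (251 to 390.3, 0.64) passed 1.5-fold, and no member was lower by it. Of all genes 5.14% were higher and 6.32% lower by that fold, so 3 of 58 is near the background. Hspd1 went from 834 to 1236 CPM (0.57), Hsp90aa1 from 1373 to 1975 (0.52), and Dnaja2 was at 0.58. The 6 members grouped here as mitochondrial (Hspa9, Hspd1, Hspe1, Dnaja3, Dnajc15 and Dnajc19) were all above 0, from 0.14 to 0.64. This group need not hold every mitochondrial member. The lowest folds were those of Dnajb9, a J protein of the ER (-0.49), and Dnajc6 (-0.47). The name of the class is a loose one. Of the 10 leading genes, 1 was a listed megakaryocyte marker in its cluster 7, 1 in cluster 11 and 3 in cluster 17. At clustering resolution 0.6 the class held 379 and 666 cells in place of 704 and 1138, control first.

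Depth differed in this class, with medians of 7596.5 UMIs per cell in the control and 12000 in B-ALL marrow, and the cell cycle list had a summed fold of 0.22, whose part was not tested. In cells of 6000 to 12000 UMIs, with medians of 8017.5 and 8890, the members' median was 0.05 with 35 of 58 above 0, their summed fold was 0.15 and that of the cell cycle list -0.22. There 2 members were past 1.5-fold higher, Dnaja2 and Dnajb2 (0.63), and 2 lower, Dnajc6 (-0.86) among them. Of all 8782 genes tested in these cells 556 were higher and 634 lower by that fold, so the member counts are not above the background. In the same cells Dnaja2 was at 0.61, Hspd1 at 0.41, Hspa9 at 0.40, Hsph1 at 0.34 and Hsp90aa1 at 0.18. Hsph1 and Hspa9 were then no longer past 1.5-fold. In clusters 7, 11 and 17 of the class taken alone, the members' median was 0.13, 0.07 and 0.13, and Hspd1 was at 0.40, 0.69 and 0.45. Of the 6 members grouped as mitochondrial 4 were above 0 in cluster 7 (the lowest at -0.17), 6 in cluster 11 and 5 in cluster 17.

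Monocyte and neutrophil progenitor-like cells had summed Hsp90 folds of 0.16 and 0.19 and summed Hsp70 and Hsp110 folds of 0.15 and 0.19. No member passed 1.5-fold, where 1.33% of all genes were higher and 1.91% lower in monocyte progenitor-like cells, and 2.25% and 2.75% in neutrophil progenitor-like cells. In the monocyte class 5 members were past a log2 fold of 0.32 higher and none lower, beside 7.88% and 8.13% of all genes, and intervals lay above 0 for 22 and below 0 for 6, beside 27.0% and 22.8%. Hsp90aa1 had the highest fold in both, 0.43 (0.40 to 0.45) and 0.55 (0.51 to 0.58), followed by Hspa9 (0.38) in the former and Hspbp1 (0.41) in the latter. The lowest were Dnajc14 (-0.25) and Hspb11 (-0.23) in monocyte progenitor-like cells, and Dnajc17 (-0.31) was lowest in neutrophil progenitor-like cells. Median UMIs per cell were 15285 and 18892 in the monocyte class and 16053.5 and 21561 in the neutrophil class, control first, and the part of depth was not tested.

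In multipotent progenitor-like cells the ER chaperones were lower. All 8 genes grouped as ER (Hspa5, Hsp90b1, Hspa13, Dnajb9, Dnajb11, Dnajc1, Dnajc3 and Dnajc10) were below 0, with a median of -0.57. Hspa5 went from 989.7 to 555 CPM (-0.83, -0.90 to -0.77), Hsp90b1 from 1011 to 584 (-0.79), Dnajc3, which restrains the ER stress kinase, from 165 to 106 (-0.64) and Dnajb11, a cochaperone of Hspa5, from 136 to 90.2 CPM (-0.59). These 4 were the members past 1.5-fold, where 4.13% of all genes were lower and 4.38% higher. The 3 members found with the ER stress element are among them, while Hspa13 had no window. The part of the element in these folds was not tested. Intervals lay below 0 for 18 of 56 members and above 0 for 9, beside 19.2% and 17.4% of all genes. The highest folds were those of Dnajb4 (0.58) and Dnajb2 (0.48, -0.04 to 1.01). Of the ER partner list 20 of 24 were below 0 and 7 were past 1.5-fold, with Ern1 at -1.52, Hyou1 at -1.31 and the disulfide isomerases Pdia6 and P4hb at -1.14 and -0.80.

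The size of this difference rested on 1 cluster. Cluster 9 held 137 control cells with a median of 4347 UMIs and 81 cells of B-ALL marrow with a median of 10323, and the noncoding RNAs Gm11505 and Tsix led it. Its control cells had 7071 CPM in the 8 ER genes and 7.95% of UMIs in mitochondrially encoded genes, against 2156 and 6.06% in its cells of B-ALL marrow. In cluster 13, the other 369 and 571 cells of the class, the ER genes stood at 1828 and 1502. There the median of the 8 was -0.23, none passed 1.5-fold, and 4 had intervals below 0, Hspa5 (-0.37, -0.45 to -0.29) and Hsp90b1 (-0.29) among them. Of the ER partner list 18 of 24 were below 0 in cluster 13 and 4 past 1.5-fold, with a median of -0.21 in place of -0.41 and a lowest fold of -1.11. In cells of 6000 to 12000 UMIs the ER median was -0.32 with none past 1.5-fold. The Cct genes also differed between the clusters, with a median of 0.77 in cluster 9 and -0.43 in cluster 13.

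In the other classes the ER group lay on either side of 0. In lymphoid-primed-like cells 6 of the 8 were below 0 (5 by total UMIs), 5 with intervals below 0, and their median was -0.23. In HSC-like cells 5 were below 0 (median -0.09) and in neutrophil progenitor-like cells 3 (0.06). The count was 4 of 8 in each of the megakaryocyte-like, monocyte progenitor-like and basophil and mast cell-like classes. In erythroid-like cells 6 of 8 were above 0 (median 0.16), and Hspa5 (0.41, 0.34 to 0.47) and Dnajc10, an ER disulfide reductase (0.34), had the highest folds of all members there. The lowest were Dnajc27 (-0.56) and Cct5 (-0.39), and none passed 1.5-fold, where 5.4% of all genes were higher and 4.5% lower. Intervals lay above 0 for 10 members and below 0 for 12, beside 19.7% and 20.2% of all genes. In lymphoid-primed-like cells 37 of 57 members were below 0 with a median of -0.13. Dnajb2 was past 1.5-fold lower there (-0.65, -1.20 to -0.12), where 3.11% of all genes were lower and 4.4% higher, Dnajc3 followed (-0.50), and Dnajb4 (0.33) and Dnajc10 (0.32) were highest. Dnajb2 thus stood on opposite sides of 0 in lymphoid-primed-like and HSC-like cells, a difference that was not tested. In basophil and mast cell-like cells, 232 and 159 in number, 1 of 58 members was past 1.5-fold lower and none higher, where 5.34% of all genes were lower and 6.84% higher. Dnajc25 (-0.49, -1.22 to 0.22) was among the lowest, and Dnajc18 (0.48, -0.32 to 1.29) and Dnajc12 (0.47, -0.56 to 1.53) were highest.

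**Figure D5:**
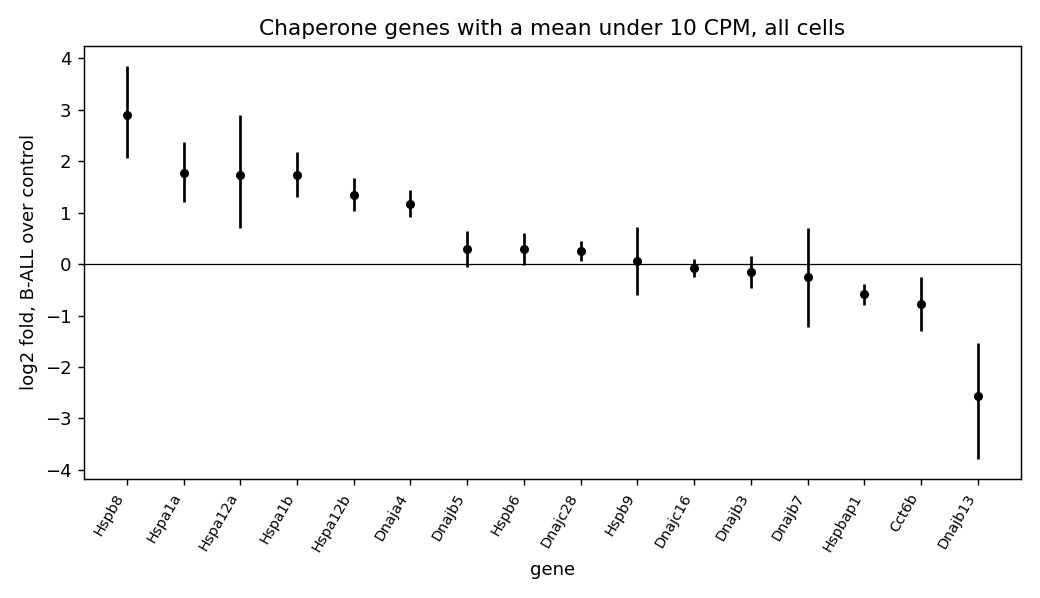
Log2 fold (B-ALL marrow over PBS control) of the 16 chaperone genes with a mean under 10 CPM over all cells, with bars for 95% counting intervals. The interval lies wholly past 1.5-fold higher for 6 genes, from Hspb8 at 2.91 to Dnaja4 at 1.17, and wholly past it lower for Dnajb13, the lowest at -2.57.

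Larger folds lay among the 16 members under 10 CPM, which the counts above leave out. The interval lay wholly past 1.5-fold higher for 6 of the 16 and lower for 1. Among all 5197 genes under 10 CPM this held for 16.8% and 8.12%. Hspa1a, an inducible Hsp70, had 33 UMIs in the control and 129 in B-ALL marrow (1.78, 1.22 to 2.38). Hspa1b had 57 and 216 (1.73, 1.31 to 2.18). The pair are near-identical copies whose reads may not all be told apart, so each value alone is uncertain. Dnaja4, a heat-inducible J protein, had 173 and 445 UMIs (1.17, 0.92 to 1.44). The promoter windows of these 3 genes, picked after their values were seen, hold GAANNTTC, which 16.4% of the members and 7.73% of all genes with a window also hold. Of its other holders, Cct2, Hspe1, Hspd1, Dnajb6 and Dnajc27 were below 0 over all cells, while Dnaja1 (0.04) and Hspb6 (0.29, -0.02 to 0.60) were above 0. Hspd1 was at 0.13 with equal class numbers. GAANNTTC was not found in the windows of Hspb8, Hspa12a and Hspa12b, the other 3 with an interval past 1.5-fold higher. The part of the motif in these folds was not tested. With equal class numbers the folds of Hspa1a, Hspa1b and Dnaja4 were 2.25, 2.14 and 1.19.

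Few cells held the inducible Hsp70 UMIs. In B-ALL marrow 84 cells (1.43%) had an Hspa1a UMI and 159 (2.70%) an Hspa1b UMI, against 25 (0.425%) and 47 (0.799%) in the control. Each cell was then thinned to 3000 UMIs, which left out 179 cells of B-ALL marrow and no control cell. The Hspa1a share was 0.298% (exact interval 0.174 to 0.477) in B-ALL marrow and 0.119% (0.0479 to 0.245) in the control. Thinned to 5000 UMIs, which left out 769 and 682 cells, it was 0.528% (0.348 to 0.767) and 0.154% (0.0664 to 0.303). These intervals take cells of 1 pooled sample per group as the unit, so setting them side by side is no test between groups. At 3000 UMIs the Hspa1b share was 0.526% (0.355 to 0.750) against 0.119%. Free RNA in droplets was not measured here, so these shares are not shares of expressing cells. One megakaryocyte-like cell of B-ALL marrow held 25 UMIs of Hspa1a and 12 of Hspa1b, and without it the folds were 1.47 (0.89 to 2.08) and 1.65. By class, megakaryocyte-like cells of B-ALL marrow had 61 Hspa1a UMIs, monocyte progenitor-like cells 23 and HSC-like cells 2.

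Genes of the dissociation and immediate early list, which respond to cell handling as well as to signals, were also higher over all cells. Of 10 tested, 8 were above 0 and 5 past 1.5-fold higher, with a median of 0.58, where 3.94% of all genes were higher by that fold. These counts with equal class numbers were 7 and 1 of 9, with a median of 0.40, where 1.94% of all genes were past 1.5-fold higher. By class the median ran from -0.003 in neutrophil progenitor-like to 0.54 in HSC-like cells. In megakaryocyte-like cells, which held the most Hspa1a UMIs, it was 0.12, with 7 of 11 above 0. Ier3 was at 1.10 and Jund at 0.69, while Jun was at -0.17. Their part in the result for the inducible chaperones was not tested.

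Hspb8, a small heat shock protein that works with Bag3 in selective autophagy, had 13 UMIs in the control and 111 in B-ALL marrow (2.91, 2.07 to 3.86). HSC-like cells held 4 and 59 of them, a fold within the class of 2.01 (0.58 to 3.94), and with equal class numbers the fold over all cells was 1.67. Hspa12b had 112 and 325 UMIs (1.35), and 0.68 with equal class numbers. Hspa12a had 10 and 38 UMIs (1.74, 0.70 to 2.91). On the lower side, Dnajb13, a gene of the sperm tail, had 47 and 9 UMIs (-2.57, -3.79 to -1.53), Cct6b, the testis form of Cct6a, had 78 and 52 (-0.77), and Hspbap1 had 488 and 370 (-0.59, -0.79 to -0.39, and -0.29 with equal class numbers). Of the other 7, Dnajc28 had an interval above 0 (0.25, 0.06 to 0.44), and the intervals of Dnajb3, Dnajb5, Dnajb7, Dnajc16, Hspb6 and Hspb9 held 0.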

How the data were processed

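RNA of single marrow cells was measured in 4 labelled samples, 2 PBS control and 2 B-ALL marrow. The authors deposited UMI counts, not normalized, for each gene in each cell, and the authors' cell table gives total UMIs, genes detected, UMAP coordinates and a group prefix (pbs or tm, read as control and B-ALL marrow). Cell Ranger 4, Seurat 4.0.1 and the build mm10 are named in the submitters' processing notes. The prefix does not separate the samples of a group, so UMIs were summed per group. Fold changes were scaled by TMM (edgeR 4.0.16), with exact conditional 95% intervals of counting error, and a gene was tested where its mean reached 10 CPM in that comparison. A call is a fold past 1.5. The fold and interval code was tested on simulated data.

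Classes are Leiden clusters of the authors' UMAP (30 neighbours, resolution 0.3; scanpy 1.11.5), named from marker lists with a mean log2 enrichment of at least 0.5, at least 3 markers in 10% of cells and at least 1 of the 10 leading genes. The last condition, and leaving a cluster led by T cell receptor genes unnamed, were set after the data were seen. Scrublet called 6 and 3 cells, too few to have worked, and no cell was removed. Members and gene lists were chosen with earlier results of these data known. Named over all cells were, per family, the 4 most abundant members and the 4 with the largest folds, the 6 highest and 6 lowest folds of the HSC-like class, the 2 highest and 2 lowest of any other, and up to 4 partner genes per list. Other members named, those under 10 CPM included, were chosen after their values were seen. The values of 1 member are not reported here, though counts, sums and medians over the members include it. Motifs were searched in RefSeq windows, and of several windows of a gene the one with most matches is shown. Alternatives covered scaling, expression and fold thresholds, cell filters, class definitions, depth and clusters taken alone.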

Additional observations from a re-analysis of the deposited data

Results flagged for a closer look

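For 5 families the summed UMIs were lower in HSC-like cells and higher in megakaryocyte-like cells, a contrast of opposite directions with 1 sample per group whose difference was not tested. The Hsp90 sum had a log2 fold of -0.11 in HSC-like and 0.27 in megakaryocyte-like cells. The Hsp70 and Hsp110 sum was at -0.090 and 0.35, and the mitochondrial chaperonin at -0.19 and 0.44. The Dnajc sum was at -0.10 and 0.10, and the CCT sum at -0.36 and 0.10. A sum follows its abundant genes: 7 of 10 Hsp70 and Hsp110 members tested in HSC-like cells were above 0, with a median of 0.05. In clusters 2, 3 and 4 of the HSC-like class the Hsp70 and Hsp110 sum was -0.03, 0.05 and -0.12. The chaperonin sum was -0.08, 0.07 and -0.25. Intervals of the Hsp70 and Hsp110 sum in clusters 2 and 3 and of the chaperonin sum in cluster 3 held 0. Median UMIs per cell were 7309.5 and 7365 in HSC-like cells and 7596.5 and 12000 in megakaryocyte-like cells, control first. In cells of 6000 to 12000 UMIs the sums in the same order were -0.15 and 0.19 for Hsp90, -0.16 and 0.15 for Hsp70 and Hsp110, -0.22 and 0.35 for the chaperonin, and -0.16 and 0.035 (-0.010 to 0.079) for Dnajc. The CCT sum was -0.38 and -0.055, below 0 in both, so the opposite directions were not seen for CCT in that range of depth.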

How the results depend on the processing

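With 1 pooled sample per group the intervals cover counting error only, and genes of few UMIs are limited by depth. No paired analysis was possible because the cells carry no replicate number, and leaving out a replicate was not run for the same reason. Of the values for whole comparisons under the alternatives, 140 moved by less than their limit and 50 by more, and the cause was not tested. Clusters taken alone and the window of 6000 to 12000 UMIs were chosen after seeing the data.

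Over all cells, members past 1.5-fold numbered 4 higher and 1 lower at a minimum of 1 CPM. No share of all genes is given for that minimum, so the count is no result about the members. Past a log2 fold of 0.32 were 1 higher and 2 lower, beside 9.87% and 9.71% of all genes. With equal class numbers the members' median was 0.0015 and the CCT median -0.090. Without mitochondrially encoded UMIs the chaperone share was 2.37% in both groups. Thinned to 5000 UMIs, the Hspa1b share was 0.327% in the control and 0.958% in B-ALL marrow, and the Hspa1a share 0.154% and 0.528%.

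In HSC-like cells, members past 1.5-fold were 2 higher and 0 lower by total UMIs, 6 higher at a minimum of 1 CPM and 0 higher at 50 CPM. No share of all genes is given for these settings, so their counts are no result about the members. Past a log2 fold of 0.32, 7 were higher and 9 lower, beside 16.1% and 15.4% of all genes. The number past 1.5-fold lower was 0 among cells at least as deep as the shallowest control cell and 0 without cells rich in globin or Igkc. Without the highest 5% of Scrublet scores 2 were past 1.5-fold higher. At resolution 0.6 there were 0 higher and 2 lower, and by marker UMIs per cell 0 higher. Centred clusters gave 2 higher and 3 lower, beside 1050 and 845 of all 9234 genes. Many centred clusters held almost only cells of 1 group, so classes joined from them can set unlike cells side by side. The CCT median was -0.48 with centred clusters and -0.15 by marker UMIs per cell. Cluster 2 alone gave 4 of 56 members lower, beside 688 of 8938 genes. Cluster 3 gave 6 higher and 5 lower of 60, beside 1522 and 1470 of 9472 genes, with a CCT median of -0.056. Cluster 4 gave 0 higher, beside 762 of 9374 genes. Cells of 6000 to 12000 UMIs gave 3 and 3 of 58, beside 894 and 749 of 9306 genes. For the other alternatives of this section no share of all genes is given, so their counts show only how calls moved.

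In multipotent progenitor-like cells there was 1 higher by total UMIs and 0 lower with centred clusters, where 431 of 8957 genes were lower. That centred class joined a cluster of 1007 control cells and 14 of B-ALL marrow with one of 9 control cells and 819 of B-ALL marrow. Cluster 9 alone gave 23 higher and 8 lower of 54 members, beside 2330 and 2303 of all 9182 genes. Its members' median was 0.50 and its CCT median 0.77, on the other side of 0 from the -0.26 of the whole class. Cluster 13 gave 1 higher and 0 lower, beside 432 and 300 of 8770 genes. Cells of 6000 to 12000 UMIs gave 1 lower, beside 440 of 8789 genes. In megakaryocyte-like cells cluster 11 gave 7 higher and 3 lower of 58 members, beside 559 and 665 of 8798 genes. Cluster 17 gave 1 lower, beside 704 of 8536 genes. Cells of 6000 to 12000 UMIs gave 2 lower, beside 634 of 8782 genes, with a CCT median of -0.037. With centred clusters, basophil and mast cell-like cells had 3 higher and 2 lower, beside 914 and 811 of 8702 genes. With the same clusters erythroid-like cells had 1 higher, beside 365 of 8426 genes, and the CCT median of monocyte progenitor-like cells was -0.16.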
